A study of Homo sapiens with 2 samples.

Results

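The genes described here encode the replication-dependent histones, and each was examined for peaks of H4K5ac, histone H4 acetylated at lysine 5, in FaDu cells under hypoxia and normoxia. They were taken from the RefSeq annotation as the protein-coding genes of chromosomes 1 and 6 whose symbols are H1-1 to H1-6 or begin with H2AC, H2BC, H3C or H4C. There were 68 of them among 19974 protein-coding genes. They comprised 6 H1, 17 H2A, 18 H2B, 13 H3 and 14 H4 genes. By position, 55 lay in the large cluster of chromosome 6 band p22, 11 in a cluster of chromosome 1 band q21 and 2, H2AC25 and H2BC26, in band q42 of chromosome 1.

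The data are chromatin immunoprecipitation followed by sequencing (ChIP-seq), deposited as 1 list of peaks per condition on the human build hg38. The hypoxia library came from FaDu cells, an established line from a human head and neck cancer, kept at 1% oxygen for 18 h. The normoxia library came from FaDu cells whose label gives normoxia and no other treatment. H4K5Ac is the target in both sample labels, but the antibody in the design text is H3K4Ac. The shared culture protocol also mentions a lentiviral METTL4 knockdown, which no sample label assigns to either library. With 1 library per condition there were no replicates and no test of the condition, so all intervals below cover counting error only, and a smaller share of acetylated cells cannot be told apart from less acetylation per cell.

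Replication-dependent histone genes supply the proteins that package newly copied DNA, and their transcription rises as cells enter S phase. They are short genes without introns for the most part, their mRNAs end in a stem-loop instead of a poly(A) tail, and many lie in head-to-head H2A and H2B pairs that share the DNA between their starts. Core histones H2A, H2B, H3 and H4 form the nucleosome and H1 binds the linker DNA. H4K5ac is carried by newly made H4 before and during its deposition and is also found at the starts of active genes. The spans of the 68 genes had a median of 494.5 bp, with 60 of them at most 1000 bp, against a median of 24170.5 bp over all protein-coding genes.

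The promoters of the families hold different short motifs, and 5 are shown because they stand at opposite ends of the peak data: H2AC11 and H2BC11, the pair whose best peak, that with the highest −log10 p-value in the gene's window, had the highest fold enrichment over background in hypoxia, H1-4, whose peak held the most reads of any H1 gene in hypoxia, and H1-6 and H4C7, which had no peak. Each is the 120 bases before the gene start from RefSeq (GRCh38.p14), read 5′ to 3′ on the gene's strand. Capitals mark the TATA box TATAAA, the CCAAT box CCAAT, the octamer ATTTGCAT known from H2B promoters and the H1 motif AAACACA, on either strand. H2AC11 is at chr6:27132923-27133042 on the plus strand, H2BC11 at chr6:27132796-27132915 on the minus strand, H1-4 at chr6:26156209-26156328 on the plus strand, H1-6 at chr6:26108136-26108255 on the minus strand and H4C7 at chr6:26246997-26247116 on the minus strand.
H2AC11: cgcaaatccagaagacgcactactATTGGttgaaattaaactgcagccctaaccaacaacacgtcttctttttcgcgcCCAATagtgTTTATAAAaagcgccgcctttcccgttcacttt
H2BC11: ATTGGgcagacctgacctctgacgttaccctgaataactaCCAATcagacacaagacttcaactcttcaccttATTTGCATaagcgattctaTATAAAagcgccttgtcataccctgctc
H1-4: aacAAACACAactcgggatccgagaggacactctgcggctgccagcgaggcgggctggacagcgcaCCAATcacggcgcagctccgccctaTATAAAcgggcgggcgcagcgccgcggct
H1-6: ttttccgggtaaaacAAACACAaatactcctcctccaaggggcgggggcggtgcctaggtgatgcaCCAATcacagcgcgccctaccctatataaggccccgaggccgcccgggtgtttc
H4C7: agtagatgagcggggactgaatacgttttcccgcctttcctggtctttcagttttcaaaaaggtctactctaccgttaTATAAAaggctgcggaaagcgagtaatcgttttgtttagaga
In windows from 250 bases before to 50 after the start, which were at hand for 63 of the genes, TATAAA was found in 41 (65.1%), against 9.64% of 15813 protein-coding promoters. The CCAAT letters were in 54 windows (85.7%, against 36.3%). All H1, H2A, H2B and H3 windows held them, against 3 of 12 H4 windows. The octamer was in 26 windows (41.3%, against 1.70%), of which 14 belonged to the 18 H2B genes and 11 to the 16 H2A genes. Windows of head-to-head pairs overlap, so 1 octamer can be counted for both genes. The H2AC11 window, for example, reaches the H2BC11 octamer shown above, and the 120 bases of H2AC11 hold none. The 1 H3 gene counted, H3C4, has the same window as H2AC7. AAACACA was in 9 windows (14.3%, against 4.25%), including all 6 H1 windows. The 7 genes without a peak also held these letters: 5 had TATAAA and 5 had CCAAT, so the letters alone did not separate genes with a peak from those without. A match is a run of letters and not a measured binding site.

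Most of the histone genes carried an H4K5ac peak in both libraries. Peaks were assigned to a gene when they touched its span or the 1000 bp on either side. In both libraries 59 of the 68 genes (86.8%) had a peak, against a background of 81.3% of all protein-coding genes. In hypoxia alone there were 2 genes, H4C6 and H3C12, against 8.99% of all genes, and no gene had a peak in normoxia alone, against 0.501%. In neither library there were 7 genes, against 9.26%. Counted by library, 61 genes had a peak in hypoxia (background 90.2%) and 59 in normoxia (background 81.8%). These shares are near the background, which is itself set by much longer genes. Among the 524 protein-coding genes whose span is at most 1000 bp, 24% had a peak in both libraries and 57.3% in neither. In hypoxia alone there were 16.8% of them, and in normoxia alone 1.91%. The 524 include 60 of the histone genes themselves, so their shares are not independent of the histone genes.

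Strong peaks, defined as those whose −log10 q-value reached 10, were present at 59 of the histone genes in hypoxia (background 75.8%), at 56 in normoxia (background 68.8%) and at 55 in both (background 68.2%). Counted instead within 1000 bp of the gene start, for the 63 genes with a start at hand, 54 had a peak in both libraries (background 69.2%), 1 in hypoxia alone (H4C6, background 9.94%), 0 in normoxia alone (background 0.904%) and 8 in neither (background 19.9%). The additional gene in neither was H4C15, whose annotated span is long and whose best peaks lay 17655 bp from its start in hypoxia and 10943 bp in normoxia.

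The 7 genes without a peak fall into named groups. H1-6, H2AC1 and H2BC1 encode histones known as testis-specific, and H2AC1 and H2BC1 stand alone at the end of the chromosome 6 cluster. H4C7 encodes a divergent H4. H4C14, H3C14 and H3C15 lie in the duplicated stretch of chromosome 1 described below. H4C6, an H4 gene, had 2 peaks in hypoxia and none in normoxia; the better one had a fold of 3.69, 21 reads at its summit (solved from the fold and p-value) and a −log10 q-value of 5.73, and lay 1107 bp past the gene start. H3C12, an H3 gene, had 1 hypoxia peak with a fold of 3.06, 86 reads and a −log10 q-value of 16.5, and no normoxia peak within its window. By family, 5 of 6 H1, 16 of 17 H2A, 17 of 18 H2B, 10 of 13 H3 and 11 of 14 H4 genes had a peak in both libraries.

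Counting each peak once, however many genes it touches, 92 hypoxia and 85 normoxia peaks lay at the histone genes (1.08 hypoxia peaks for each normoxia peak, 95% interval 0.797 to 1.47). At all protein-coding genes the same count was 146235 hypoxia and 72197 normoxia peaks, a ratio of 2.03. At genes with a span of at most 1000 bp, 60 of them histone genes, it was 316 and 188, a ratio of 1.68 (1.40 to 2.02). Those comparisons differ in how much of each gene lies away from its start. Within 1000 bp of gene starts the ratio was 1.11 at histone genes (73 and 66 peaks, 0.782 to 1.57) and 1.17 at all genes (17180 and 14653 peaks, 1.15 to 1.2), so at matched windows the histone genes did not stand apart from other genes.

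The 2 lists overlapped at these genes. Of the hypoxia peaks, 82 of 92 (89.1%, exact Clopper-Pearson interval 80.9 to 94.7) touched a normoxia peak, and of the normoxia peaks 74 of 85 (87.1%, 78.0 to 93.4) touched a hypoxia peak. At all genes the shares were 36.0% in hypoxia and 71.1% in normoxia, and within 1000 bp of gene starts 82.5% and 94.1%, against 90.4% and 93.9% for the histone genes in that window. Hypoxia peaks were narrower at the histone genes, at 489.5 bp in the median, against 673 bp for normoxia peaks. The peaks covered 54670 bp in hypoxia and 64488 bp in normoxia. All genes had the same order, with medians of 299 bp in hypoxia and 376 bp in normoxia. A normoxia peak spanned at least 2 hypoxia peaks in 10 of 85 cases (11.8%), whereas 1 of 92 hypoxia peaks (1.09%) spanned at least 2 normoxia peaks. At all genes these shares were 5.18% and 1.69%, and within 1000 bp of gene starts 8.89% and 5.05%.

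Strong peaks that touched no peak of the other library made up 4.11% of the strong hypoxia peaks at the histone genes (3 of 73) and 6.25% of the strong normoxia peaks (4 of 64). The shares at all genes were 10.5% in hypoxia and 1.46% in normoxia, and within 1000 bp of gene starts 2.37% and 0.308%, against 3.17% and 3.64% for the histone genes in that window (2 of 63 and 2 of 55). The 3 in hypoxia were at H3C12, at H2BC18 and H3C13 (fold 5.16, −log10 q-value 15.2) and at H3C4, H2AC7 and H2BC7 (fold 3.0, −log10 q-value 13.8). The 4 in normoxia were at H3C6 (fold 3.85, −log10 q-value 16.7), H2BC17 (2.79, 11.7), H2BC18 (4.52, 11.4) and H2BC4 (2.94, 10.8). Each of these genes other than H3C12 also had a further peak in the other library, so the unmatched peaks changed the class of 1 gene.

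Because the genes are short and close together, peaks were often shared. In hypoxia 53 peaks touched 1 histone gene, 35 touched 2 and 4 touched at least 3. In normoxia these counts were 49, 33 and 3. The 3 strongest peaks touching at least 3 genes had an overlapping peak in the other library, and the fourth in hypoxia, at H3C4, H2AC7 and H2BC7 with a fold of 3.0, had none. At H2BC21, H2AC20 and H2AC21 on chromosome 1, the hypoxia peak at chr1:149886944-149887937 had a fold of 6.98 and the normoxia peak at chr1:149886966-149887950 a fold of 4.24. A neighbouring peak at the same 3 genes had a fold of 5.45 in hypoxia and 3.85 in normoxia. At H3C4, H2AC7 and H2BC7 the hypoxia peak at chr6:26198866-26199229 had a fold of 5.50 and the normoxia peak at chr6:26198851-26199259 a fold of 3.64. The best peak of a gene was the same peak for neighbours so often that 33 genes in hypoxia and 36 in normoxia shared theirs, leaving 44 and 40 distinct best peaks.

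Along the chromosome 6 cluster the histone genes held over 50% of the strong peaks and a smaller share of all peaks. Between its first and last histone gene, chr6:25726063-27893891, the cluster held 275 hypoxia and 198 normoxia peaks (ratio 1.39, 1.15 to 1.68). Of these, 80 in hypoxia and 73 in normoxia lay at histone genes. Away from them were 195 hypoxia and 125 normoxia peaks (ratio 1.56, 1.24 to 1.97). Of these, 39 in hypoxia and 30 in normoxia lay at the 20 other protein-coding genes. Each of these ratios is below the 2.15 of the whole lists. With the hypoxia list limited to the length of the normoxia list, all clusters together held 189 hypoxia and 209 normoxia peaks, so the larger hypoxia count did not hold at equal list length. Of the strong peaks, 64 of 110 in hypoxia and 54 of 92 in normoxia were at histone genes. The 20 other genes of the cluster had peaks in both libraries in 16 cases, in hypoxia alone in 3 and in neither in 1.

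The cluster has 4 stretches separated by over 200000 bp. H2AC1 and H2BC1 form the first and had no peak. From H1-1 to H4C8 lie 32 genes, of which 29 had peaks in both libraries, 1 in hypoxia alone (H4C6) and 2 in neither (H1-6 and H4C7), with 50 hypoxia and 46 normoxia peaks. From H2BC11 to H2AC12 all 5 genes had peaks in both libraries, with 9 hypoxia and 6 normoxia peaks, and the median fold of best peaks was 8.64 in hypoxia and 5.18 in normoxia, above the medians of the other stretches in both lists. From H2BC13 to H2BC17 lie 16 genes, 15 with peaks in both libraries and H3C12 in hypoxia alone, with 22 peaks in each library and median folds of 5.38 and 4.0.

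**Figure D1:**
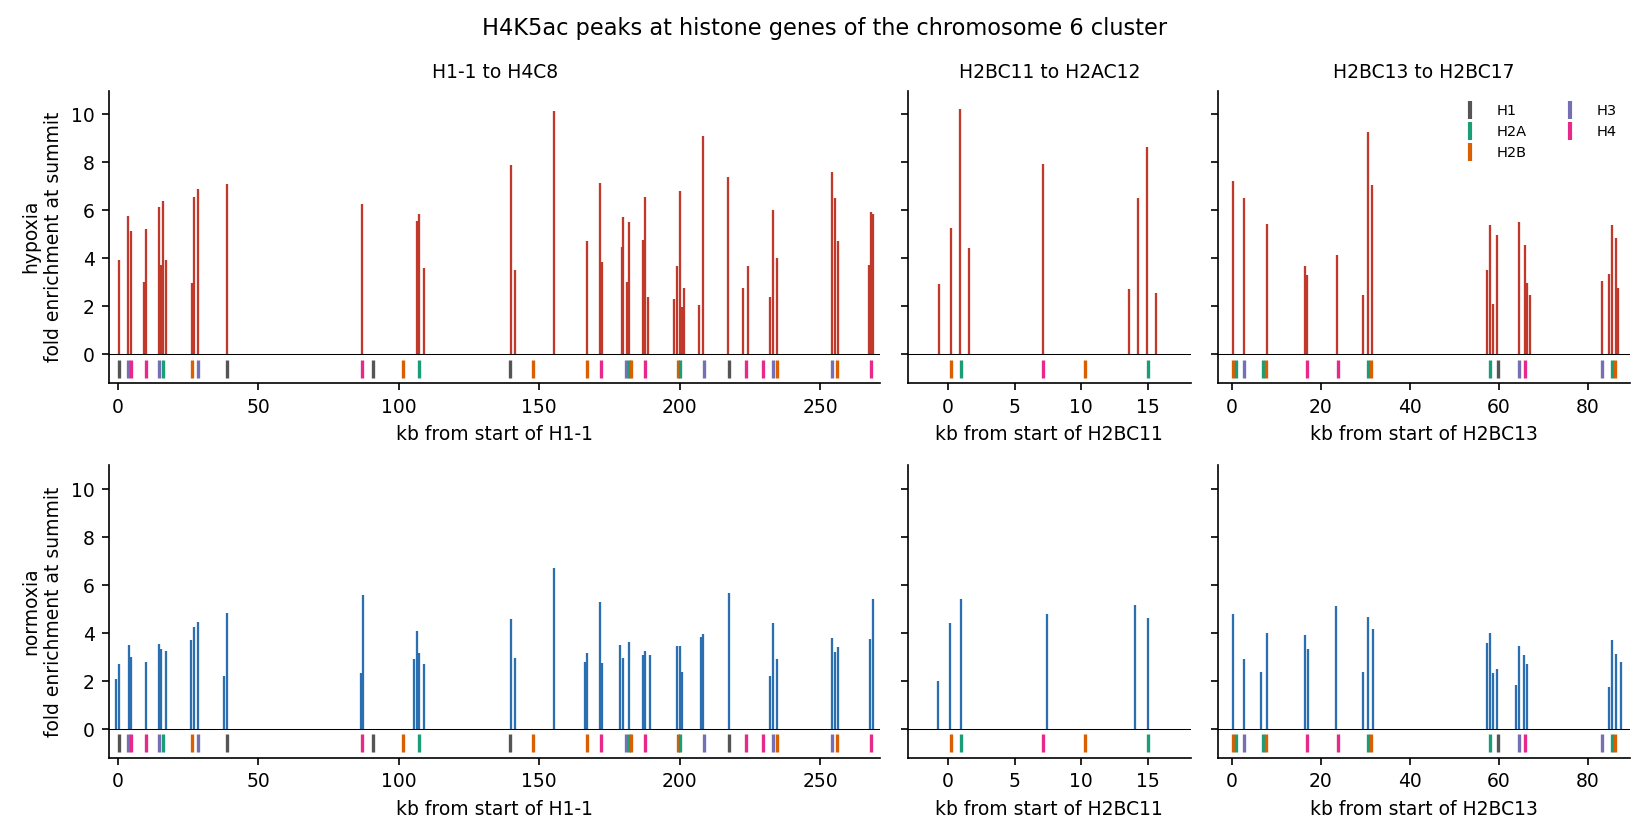
H4K5ac peaks at the histone genes of 3 stretches of the chromosome 6 cluster, hypoxia in the upper row and normoxia in the lower. Each vertical line is a peak at its summit, with the authors' fold enrichment on the vertical axis, the horizontal axis gives the distance in kb from the first gene of the stretch, and the ticks under the axis are the genes, coloured by family. Peaks stand at nearly the same places in both rows, up to a fold of 10.2 in hypoxia and, in normoxia, up to 6.72.

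The chromosome 1 cluster, chr1:149782689-149887965, held 9 peaks in hypoxia and 9 in normoxia, all of them at histone genes. Of its 11 genes, 8 had peaks in both libraries and 3 in neither. Part of it is a duplication whose copies are nearly alike in sequence, and no source used here says how the mapping treated reads that match both copies. The promoters of H4C14 and H4C15 were 100% identical over 300 bases, those of H2AC18 and H2AC19 99.7% and those of H3C14 and H3C15 98.7%. On chromosome 6, H4C11 and H4C12 matched at 98.3%. Apart from H2AC7 and H3C4, which share 1 annotated start, the other pairs above 80% were H2AC13 with H2AC14 (88.0%) and H2BC13 with H2BC14 (84.7%). Values at the 8 genes with a copy of at least 95% are therefore uncertain, and their absence or weakness as peaks cannot be told apart from reads that could not be placed. Only promoter windows were compared, and 5 histone genes had none. Coding sequences, where many summits lay, were not compared, so the remaining genes are not shown to be free of the same doubt.

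These copies are shown because a read from an identical stretch cannot say which gene it came from. The 120 bases before the tabulated start are at chr1:149832537-149832656 on the plus strand for H4C14 and chr1:149861160-149861279 on the minus strand for H4C15, and these are identical. For H4C11 they are at chr6:27823972-27824091 on the plus strand and for H4C12 at chr6:27831561-27831680 on the minus strand, and capitals mark the 1 base that differs.
H4C14: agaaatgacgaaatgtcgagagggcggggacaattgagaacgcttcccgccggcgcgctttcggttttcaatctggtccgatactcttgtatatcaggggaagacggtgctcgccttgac
H4C15: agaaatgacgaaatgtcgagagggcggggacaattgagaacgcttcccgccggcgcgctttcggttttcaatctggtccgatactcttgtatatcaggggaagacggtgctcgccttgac
H4C11: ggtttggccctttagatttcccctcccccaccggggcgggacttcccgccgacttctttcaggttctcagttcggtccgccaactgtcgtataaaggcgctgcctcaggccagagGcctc
H4C12: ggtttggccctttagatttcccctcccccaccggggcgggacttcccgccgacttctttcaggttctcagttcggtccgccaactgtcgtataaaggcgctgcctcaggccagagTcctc
H4C14 had no peak in either library, and the H4C15 peaks lay far from its start. Some lay inside its span, which overlaps H2AC19 and H3C15. The best hypoxia peak of H4C15, at chr1:149843321-149843862, lay beyond the far end of that span and is also the H2AC18 peak. A normoxia peak at chr1:149843320-149844302 lay outside the span too. H2AC18 and H2AC19, both H2A genes, had peaks in both libraries, but these lay about upstream: relative to the gene start, the H2AC18 summits were at −754 bp (hypoxia) and −783 bp (normoxia) and the H2AC19 summits at −759 bp (hypoxia) and −845 bp (normoxia). The H2AC18 peak had 23 reads in hypoxia and 37 in normoxia, and the H2AC19 peak 22 reads in hypoxia and 46 in normoxia. The hypoxia background at both, 3.24 reads, was the lowest among the best peaks of all genes, a minimum also found at other genes, among them CSTF2 and PTPRC.

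The 2 genes of band q42, H2AC25 and H2BC26, form a head-to-head pair with 2 peaks in each library. Their best hypoxia peak, at chr1:228457201-228457840, lay on the H2AC25 side with a fold of 4.88, and their best normoxia peak, at chr1:228458147-228459402, on the H2BC26 side with a fold of 4.71. The best peaks of the libraries did not overlap at 13 of the 59 genes with a peak in both (22%), against 18.1% of all genes with a peak in both. Besides this pair and H4C15 these were H2BC4, H2AC6, H2BC5, H3C4, H2BC9, H2BC10, H4C8, H2BC12, H2AC12 and H1-5. At H2BC4 and H2AC6, another such pair, the hypoxia summit lay 248 bp past the H2AC6 start and the normoxia summit 380 bp past the H2BC4 start. Relative to the start, the best H2BC10 summits were at −567 bp (hypoxia) and 387 bp (normoxia), and those of H2BC12 at −433 bp and 462 bp. The folds there were 6.50 in hypoxia and 3.44 in normoxia at H2BC10, and 8.64 and 5.18 at H2BC12. H2BC5, a gene with a long annotated span, took its best hypoxia peak from the neighbouring H1-4 (fold 7.88). Its far end held another hypoxia peak at chr6:26171991-26172882 (fold 10.1) that overlaps the best normoxia peak at chr6:26171519-26173402 (fold 6.72). At H4C8 the hypoxia summit lay within the gene at 226 bp past its start, and the normoxia summit before it, at −496 bp. A further hypoxia peak at chr6:26285652-26286438 (fold 5.85) overlapped the best normoxia peak. A further normoxia peak at chr6:26283768-26285460 (fold 3.77) overlapped the best hypoxia peak. At all 13 genes the best peak of each library overlapped a peak of the other list. The libraries thus differed in which peak ranked best, not in a position marked in 1 library alone.

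The fold enrichment at a summit is the authors' value for a peak within its own list: the reads there plus 1 over the local background plus 1. Folds from the lists were not read as change between libraries. At the histone genes the distinct best peaks had a median fold of 6.09 in hypoxia and 4.25 in normoxia, below the medians of all genes with a peak, 7.24 and 5.96. Of the best peaks, 9 of 44 in hypoxia and 2 of 40 in normoxia exceeded the all-gene median. The reads at the summit were not lower in the median, at 128.5 in hypoxia and 82.5 in normoxia, against 94 and 72 over all genes. Reads exceeded the all-gene median at 30 of 44 best peaks in hypoxia and at 22 of 40 in normoxia. The local background was the higher term, with a median of 18.3 reads in hypoxia and 17.8 in normoxia, against 10.9 and 10.5 over all genes. It exceeded the all-gene median at 38 of 44 best peaks in hypoxia and at 35 of 40 in normoxia. The band q21 cluster of chromosome 1, with 4 distinct best peaks in each library, went the other way. Its median reads were 47.5 in hypoxia and 49.5 in normoxia, and its median background was 5.06 and 7.02 reads.

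**Figure D2:**
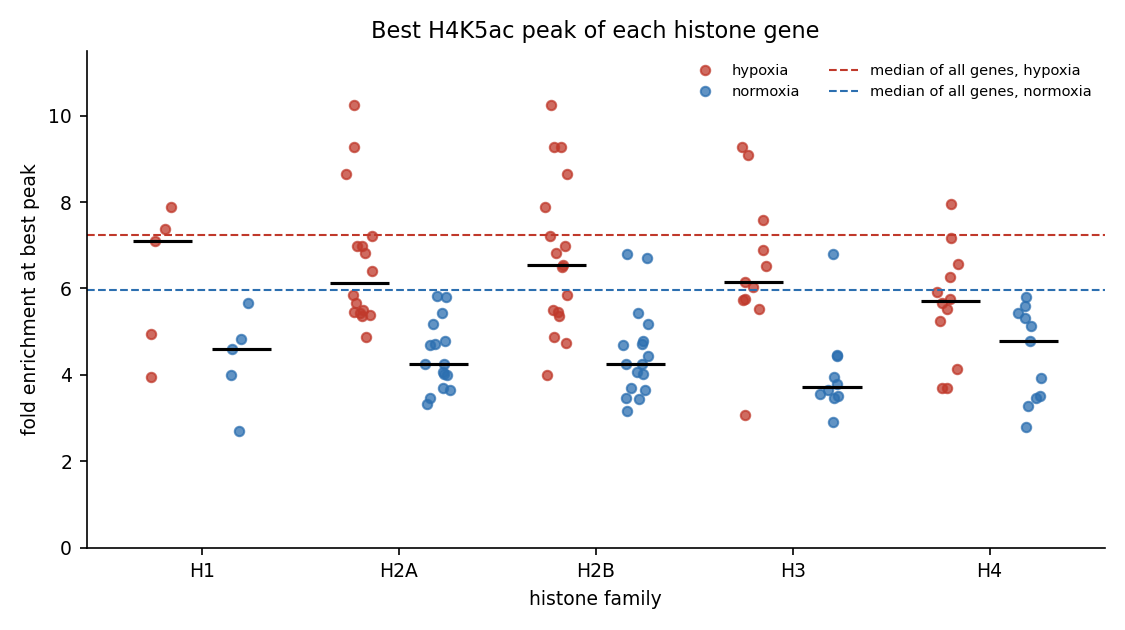
Authors' fold enrichment at the best peak of each histone gene, by family, with hypoxia on the left and normoxia on the right of each pair. Points are genes, short black bars family medians and dashed lines the medians over all genes with a peak, 7.24 in hypoxia and 5.96 in normoxia. A peak shared by neighbouring genes is drawn once for each. The family medians lie under the dashed line of their library.

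Among the H4 genes, whose protein carries the mark, the median fold was 5.71 in hypoxia and 4.78 in normoxia, from the lowest family counts of reads, medians 72.5 and 63. H4C9 had the highest fold of the family in hypoxia, 7.95, against 4.78 in normoxia. H4C4 had 7.16 in hypoxia and 5.32 in normoxia, H4C5 6.56 and 3.27, and H4C3 6.26 and 5.59. These 4 genes had peaks in both lists that lie on the gene itself. H4C8 had 5.92 in hypoxia and 5.43 in normoxia, and H4C2 5.24 and 2.80. H4C1 took 5.76 and 3.51 from a peak that lies on its neighbour H3C1, and the peak on H4C1 itself had 5.12 and 3.02. H4C13 took 5.54 and 3.47 from a peak that lies on its neighbour H3C11, 1421 bp past the H4C13 start in hypoxia. H4C15 aside, the copies H4C11 (3.69 in hypoxia, 3.93 in normoxia) and H4C12 (4.15 and 5.14) were the H4 genes whose normoxia fold was the larger. The H4C15 values, 5.66 in hypoxia and 5.80 in normoxia, came from different peaks that do not overlap. These are the best peaks of H2AC18 in hypoxia and of H2AC19 in normoxia.

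The H1 genes encode linker histones of somatic cells, H1-6 aside. The best peak of H1-4 had a fold of 7.88 in hypoxia, with 203 reads, and of 4.59 in normoxia, with 97 reads. H1-3 had folds of 7.38 in hypoxia and 5.67 in normoxia, from 158 and 101 reads, and H1-2 7.10 and 4.83, from 171 and 99 reads. H1-5 had 4.96 and 4.0 from peaks that do not overlap. The normoxia one is the best peak of H2AC16, with its summit 1997 bp past the H1-5 start. The normoxia peak on H1-5 itself, at chr6:27866711-27867456, had a fold of 2.52 and overlaps its best hypoxia peak. H1-1 had 3.95 and 2.70, the lowest best-peak folds of the family in both lists. H1-1 was also the only H1 gene with a peak in both libraries whose normoxia peak was not strong, at a −log10 q-value of 9.16. H1 peaks were long, at a median of 1122 bp in hypoxia and 1186 bp in normoxia.

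Among the H2A and H2B genes, median folds were 6.12 in hypoxia and 4.24 in normoxia for H2A, and 6.55 and 4.25 for H2B. H2AC11 and H2BC11 shared the highest in hypoxia, 10.2, with 5.43 in normoxia, from 178 and 102 reads. H2AC15 and H2BC15, another pair, shared 9.27 in hypoxia and 4.69 in normoxia, from 205 and 106 reads. At the low end in hypoxia H2AC25 had 4.88 and 4.71, and H2AC17 had 5.37 and 3.70. H2BC9 had 4.0 and 4.44, the normoxia value from a peak with its summit at −1394 bp, and H2BC6 had 4.74 and 3.16. Among the H3 genes the median was 6.15 in hypoxia and 3.72 in normoxia, H3C13 had 9.26 and 6.81, H3C6 9.09 and 3.95, and the lowest after H3C12 was H3C11 with 5.54 and 3.47.

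Reads at the summit were compared where the best peaks of both libraries overlapped, which left 34 distinct pairs of peaks at the histone genes and 11772 at all genes. The median ratio of hypoxia over normoxia reads was 1.62 at the histone genes (quartiles 1.40 and 1.74) and 1.45 at all genes (1.25 and 1.69). Depth is not given for these libraries, so a ratio above 1 is not a gain, and the all-gene median is the value to read it against. Of the 34 pairs, 24 lay above it. The background ratio was 0.983 at the histone genes and 1.1 at all genes, and after the background was subtracted the ratios of reads were 1.83 and 1.5. The quartiles of the histone genes and of all genes overlap in the ratio of reads, and no replicate is at hand to set the difference against.

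The largest ratios were at H2BC8 and H2AC8, 131 reads in hypoxia and 61 in normoxia (2.15, 95% interval 1.57 to 2.96), and at H3C10, 146 and 68 (2.15, 1.6 to 2.91). H1-4 followed with 203 and 97 (2.09, 1.64 to 2.69) and H3C6 with 129 and 64 (2.02, 1.48 to 2.76). The intervals of all 4 lie above the all-gene median of 1.45, and these pairs are the top of a ranking. Ratios were below 1 at 4 pairs, H2AC19 (0.478, 0.274 to 0.811), H2AC18 (0.622, 0.353 to 1.07), H4C12 (0.875, 0.626 to 1.22) and H4C11 (0.983, 0.672 to 1.44), each a gene with a near-identical copy. Over all genes 731 of 11772 pairs were below 1. The part of the copies in these low ratios was not tested.

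**Figure D3:**
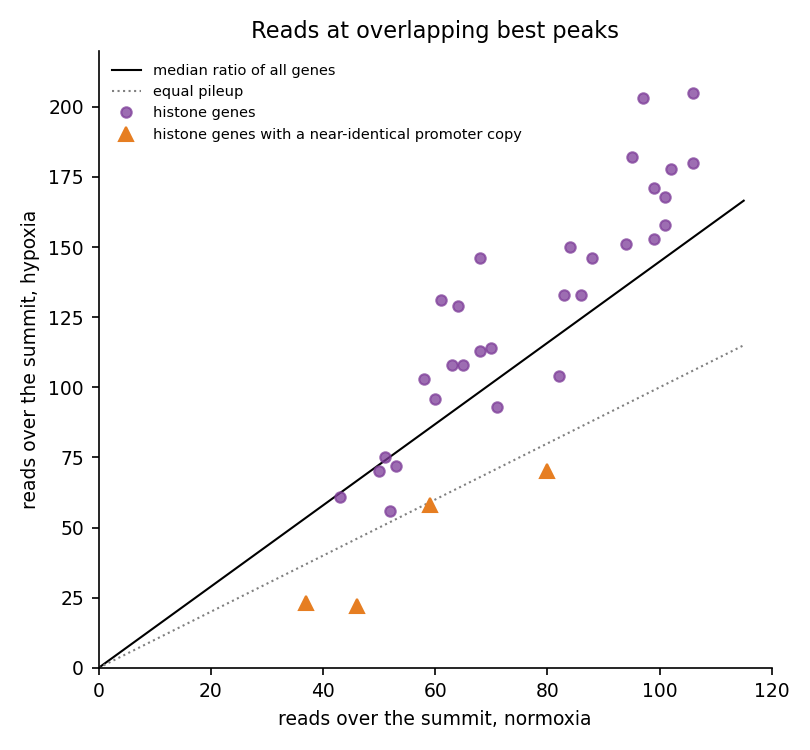
Reads over the summit in hypoxia (vertical axis) and normoxia (horizontal axis) at the 34 pairs of overlapping best peaks of histone genes. The solid line is the all-gene median ratio of 1.45 and the dotted line equal reads. Triangles are H2AC18, H2AC19, H4C11 and H4C12, the 4 pairs below the dotted line; 24 of the 34 pairs lie above the solid line.

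Most summits at the histone genes lay downstream of the gene start. Positions were measured only from genes with a start at hand. Summits at H4C1, H4C3, H2AC12, H3C11 and H3C12, which had none, were left out or measured from a neighbouring gene. Of peaks whose summit lay within 1000 bp of the nearest gene start, 69 in hypoxia and 63 in normoxia belonged to histone genes, with median positions of 236 bp and 301 bp past the start (quartiles 155 and 377 bp for hypoxia, 217 and 456 bp for normoxia). At other genes the medians were 160 bp and 181 bp past the start, with lower quartiles of −259 bp and −278 bp. From 100 to under 400 bp past the start lay 37 of 69 histone summits in hypoxia (53.6%, 41.2 to 65.7) and 28 of 63 in normoxia (44.4%, 31.9 to 57.5), against 44.1% and 46.7% at other genes, so that share did not stand apart. Within 100 bp of the start there was no histone summit, 0 of 69 in hypoxia and 0 of 63 in normoxia, which allows shares of up to 4.35% and 4.76% by the limit of 3 counts and of up to 5.21% and 5.69% by the exact interval. Other genes had 7.12% in hypoxia, above both limits, and 5.10% in normoxia, which lies inside the exact interval. From 400 to just over 100 bp before the start lay 4 histone summits in hypoxia (5.80%) and 2 in normoxia (3.17%), against 17.5% and 17.2% at other genes.

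**Figure D4:**
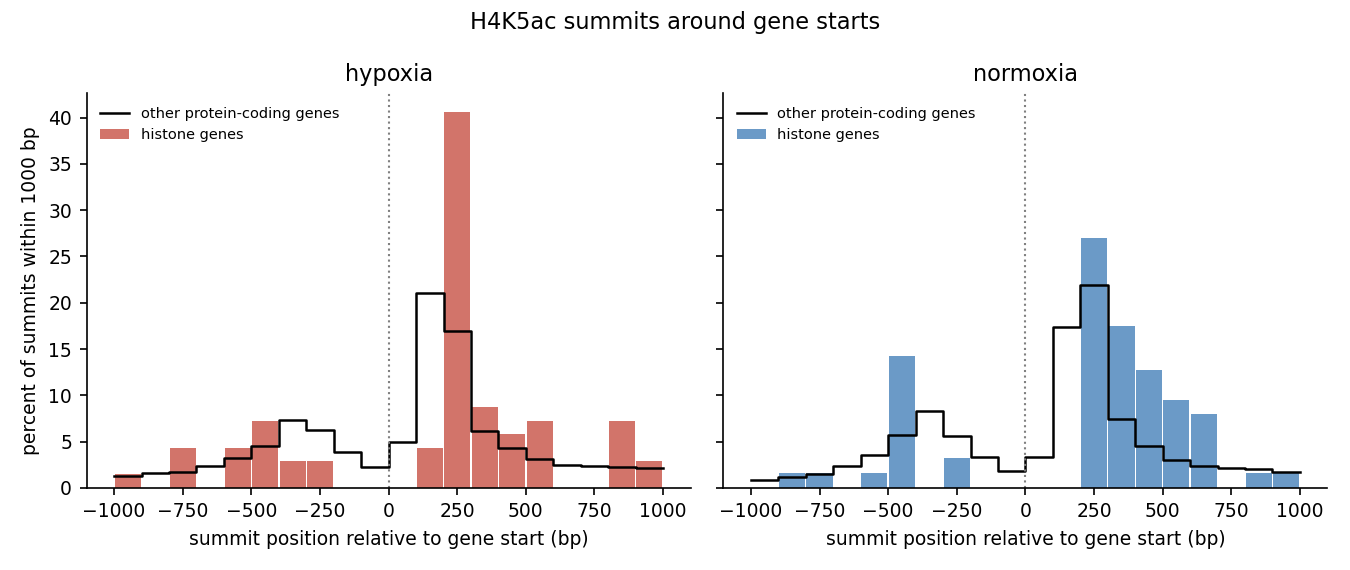
Positions of H4K5ac summits around gene starts in bins of 100 bp, as a percentage of summits within 1000 bp, for histone genes (bars) and other protein-coding genes (line), hypoxia on the left and normoxia on the right. The bin from 200 to 299 bp past the start is the fullest for histone genes, with 28 of 69 summits (40.6%) in hypoxia and 17 of 63 (27.0%) in normoxia, against 16.9% and 21.9% at other genes.

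The lists of genes that regulate or handle histones had peaks throughout, where 68.2% of all protein-coding genes had a strong peak in both libraries. All 18 genes of a list of factors that make or regulate replication-dependent histone mRNAs had strong peaks in both libraries, with median best folds of 8.71 in hypoxia and 6.55 in normoxia. SLBP, which binds the stem-loop of these mRNAs, had 12 in hypoxia and 9.04 in normoxia, and NPAT, the coactivator that sits at the histone clusters, had 8.69 and 6.18. LSM11, a subunit of the snRNP that cuts the mRNA end, had 11.7 and 8.57, and E2F1, a transcription factor of S phase entry, had 6.47 and 9.15. All 10 genes of a list of enzymes and chaperones had strong peaks in both libraries (medians 9.29 and 7.02). HAT1, which acetylates new H4, had 8.31 in hypoxia and 6.45 in normoxia. All 11 replication-independent histone genes had strong peaks in both (medians 7.89 and 6.07), including H3-3B, which encodes the H3.3 variant, at 10.3 in hypoxia and 7.45 in normoxia. In both libraries the medians of the 3 lists exceeded that of the replication-dependent genes, 6.09 and 4.25, but listed genes are longer and their best peak was sought over a longer span.

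The whole lists held 258195 hypoxia and 120033 normoxia peaks, or 2.15 for each normoxia peak, and read totals were not given. The narrowest peaks were 215 bp in hypoxia and 245 bp in normoxia. Among markers of the cells, 6 of 6 squamous epithelial genes had peaks in both libraries, and so did 5 of 7 genes of blood, endothelial and stromal cells, with CD3E in hypoxia alone and DCN in normoxia alone, against 81.3% of all genes with a peak in both. A peak somewhere in a gene's window thus did not separate the cell types here.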

How the data were processed

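H4K5ac was measured by ChIP-seq in 2 libraries, 1 per condition, sequenced single-end to 75 bp per the labels' protocols. Peaks are narrowPeak files on hg38; MACS2 and SICER are named per the submitters' processing notes, while no source used here gives versions, settings, input control or read totals. The authors' deposited columns hold a score, the fold enrichment at the summit (a ratio), and the −log10 p-value and −log10 q-value. From fold and p-value the reads over each summit and their background were solved with a Poisson tail, which succeeded for 99.99% of best peaks in hypoxia and 100% in normoxia and was tested on simulated data. Genes, promoters and gene starts came from RefSeq (GRCh38.p14). Peaks touching a gene's span plus 1000 bp were assigned to it by an overlap of at least 1 bp. Intervals are exact Clopper-Pearson at 95%, or the same for ratios of 2 counts. The tools were Python 3.11.15, numpy 2.4.6, pandas 2.3.3, scipy 1.17.1, Biopython 1.88 and matplotlib 3.10.9. Without replicates no test was planned or run. Named are all H4 and H1 genes, the 2 highest and 2 lowest of each other family by best hypoxia fold, genes with a peak in 1 library or neither, those whose best peaks do not overlap, and the 3 peaks touching most genes; other genes, named for unmatched strong peaks, ratios of reads or near-identical promoters, were chosen after their values were seen. The members and lists were chosen with earlier results of these data known. Alternatives changed the window, the q-value, the overlap, the list length, the cluster, the joining of peaks and the copies left out.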

Additional observations from a re-analysis of the deposited data

How the results depend on the processing

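Of 64 alternative values, 43 stayed within the limits set and 21 moved; the causes were not tested beyond each alternative's construction. With the gene span alone and no window, 1 gene had a peak in hypoxia alone, 1 in normoxia alone and 12 in neither, and 59 hypoxia peaks remained at the genes, 94.92% of them overlapped. A window of 2000 bp left 1 gene in hypoxia alone. Keeping peaks that reached a −log10 q-value of 10 gave 4 genes in hypoxia alone and 1 in normoxia alone, with 118 hypoxia and 101 normoxia peaks in the clusters, against 286 and 209. Limiting the hypoxia list to the normoxia list's length left 189 hypoxia peaks in the clusters. On chromosome 6 alone 4 genes had no peak. In the band q21 cluster of chromosome 1 alone, 8 genes had peaks in both libraries, 0 in hypoxia alone and 3 in neither. That cluster held 9 hypoxia and 9 normoxia peaks, with 77.78% of the normoxia peaks overlapped. Joining peaks within 500 bp gave 52 hypoxia and 47 normoxia peaks. Leaving out genes with near-identical promoters, an alternative chosen after seeing the data, left 4 genes in neither library. No paired analysis was possible because each condition has 1 library. Read depth is unknown, so a gene without a peak was not detected at this depth and is not shown to lack the mark.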

Other observations

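Histone genes outside the naming rule gave further values. H4C16, an H4 gene on chromosome 12, had a best fold of 3.84 in hypoxia and 4.04 in normoxia. H3-4, an H3 gene on chromosome 1, had a peak in hypoxia alone with a fold of 3.03, and H3-7 had no peak in either library. These 3 genes were chosen after their values were seen.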
